A study of Homo sapiens with 6 samples.

Results

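HCT116 is a human colon cancer cell line. Imetelstat is a lipid-linked oligonucleotide that pairs with the template stretch of the telomerase RNA and blocks the enzyme. The comparison described here sets HCT116 cells given imetelstat against HCT116 cells given vehicle, both for 2 weeks, with 1 Illumina HumanHT-12 V4 array a side. These are 2 of the 6 arrays of the series, which also holds 1 vehicle and 1 imetelstat array labelled COLO205, a colon cancer line, and 1 of each labelled OVCAR5, an ovarian cancer line. The arrays were chosen by their labels alone. The labels call the control agent vehicle, the methods name a mismatch oligonucleotide and a legend speaks of untreated cells, so the control is not settled. HCT116 was grown in DMEM and the other lines in RPMI1640, each with serum and antibiotics, and nothing in the labels speaks of an altered gene. With 1 array a side there is no replicate error, no p-value was computed, and a gene is called lower or higher by size, at 2-fold.

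A gene counted as measured where a probe had a detection p-value under 0.01 on at least 1 of the 2 HCT116 arrays, which gave 11040 genes. Of these 9958 were detected on both arrays, 624 on the vehicle array only and 458 on the imetelstat array only. The normalized signals are quantile-normalized bead signals, and a ratio below is the log2 of imetelstat over vehicle. The detected probes numbered 17276 on the vehicle array and 16856 on the imetelstat array. The ratios of genes of like signal scattered by 0.165 to 0.279 (scaled median absolute deviation, 10 classes of signal), and the probes of a gene differed from each other by a median of 0.157 over 3483 pairs of probes. Both figures describe these arrays and neither is an error between cultures.

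The label of the line was set against colon epithelium markers. EPCAM, KRT8, KRT18, KRT19, CDH1 and CDX2 were detected, while KRT20, VIL1, CDX1, CDH17, CEACAM5, CEACAM6, GPA33, LGALS4 and FABP1 were not, so that 6 of 15 markers were measured. EPCAM, an adhesion protein of epithelial cells, gave 9321 on the vehicle array and 9136 on the imetelstat array. Of 10 fibroblast markers 2 were detected and of 11 leukocyte markers 2, with PTPRC, CD3E, LYZ, COL1A2, COL3A1 and DCN undetected. The detected fibroblast markers were ACTA2, smooth muscle actin, with 507 on the vehicle array and 997 on the imetelstat array (ratio 0.98), and COL1A1, detected on the vehicle array only at 138. The detected leukocyte markers were CD68 and CD2, given below, and the part of other cells in the results was not tested. The arrays labelled COLO205 stood close to HCT116. The COLO205 vehicle array differed by 2-fold from the HCT116 imetelstat array in 76 genes and from the HCT116 vehicle array in 182, against 91 genes between the 2 HCT116 arrays and 1544 to 1761 between an OVCAR5 array and any array labelled as a colon line. Only genes measured in HCT116 were counted, so genes detected on other arrays alone were left out. Whether those arrays hold COLO205 cells was not tested, and they are named below by their label.

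Telomerase adds repeats to chromosome ends through its RNA template and its reverse transcriptase. Interferons are secreted when cells detect viral or misplaced nucleic acids and act through JAK kinases and IRF factors on genes whose promoters carry an interferon-stimulated response element. NF-kB acts on inflammatory genes through kappa B sites, and the genes used in late G2 and mitosis share a promoter element, CHR, that is often paired with CCAAT boxes. These elements are used below as landmarks. The stretches that follow come from the RefSeq promoter table on GRCh38.p14, 5′ to 3′ on the gene's strand, all from before the listed start, and the capitals mark matches on either strand.

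The first 5 stretches hold the interferon-stimulated response element, searched as GAAA, any 2 bases and GAAA, and are shown for 2 of the genes with the lowest ratios and for 3 genes outside the interferon and NF-kB lists. They are IFI27 (chr14:94110611-94110680, + strand), IFIT1 (chr10:89392490-89392559, + strand), IFNL1 (chr19:39296169-39296238, + strand), TAP1 (chr6:32853793-32853862, - strand) and TAP2 (chr6:32838758-32838827, - strand). In IFNL1 and in TAP1 the 2 matches overlap each other.
IFI27: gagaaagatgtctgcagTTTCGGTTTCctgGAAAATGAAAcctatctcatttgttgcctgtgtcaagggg
IFIT1: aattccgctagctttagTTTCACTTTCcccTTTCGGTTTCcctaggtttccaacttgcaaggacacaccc
IFNL1: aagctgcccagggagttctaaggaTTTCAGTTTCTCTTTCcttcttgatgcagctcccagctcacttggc
TAP1: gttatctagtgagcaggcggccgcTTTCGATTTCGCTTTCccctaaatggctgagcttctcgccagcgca
TAP2: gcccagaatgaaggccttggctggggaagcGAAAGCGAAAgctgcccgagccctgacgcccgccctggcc

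A kappa B site was searched as GGGA, any 2 bases and TTCC, and LCN2, a target that was higher, holds one too. The next 3 stretches show it in NF-kB targets at least 2-fold lower. They are NFKBIA (chr14:35404791-35404860, - strand), TNFAIP3 (chr6:137867162-137867231, + strand) and CXCL1 (chr4:73869285-73869354, + strand), where the 2 matches of CXCL1 overlap.
NFKBIA: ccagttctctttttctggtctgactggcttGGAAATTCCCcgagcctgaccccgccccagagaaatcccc
TNFAIP3: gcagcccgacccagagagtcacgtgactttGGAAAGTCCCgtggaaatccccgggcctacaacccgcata
CXCL1: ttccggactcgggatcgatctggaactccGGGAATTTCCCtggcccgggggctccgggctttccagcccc

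The last 3 hold the letters TTTGAA of the CHR element in mitotic genes that were higher. They are HMMR (chr5:163460580-163460631, + strand), CDC25C (chr5:138331805-138331864, - strand) and CCNB2 (chr15:59105087-59105145, + strand).
HMMR: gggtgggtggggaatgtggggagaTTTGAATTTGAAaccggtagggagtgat
CDC25C: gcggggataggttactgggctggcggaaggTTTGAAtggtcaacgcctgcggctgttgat
CCNB2: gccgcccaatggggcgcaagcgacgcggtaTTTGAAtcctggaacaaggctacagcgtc

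In HCT116 81 genes were at least 2-fold lower after imetelstat, which is 0.734% of the genes measured, and 10 were at least 2-fold higher, 0.0906%. At 1.5-fold the counts were 231 lower (2.09%) and 142 higher (1.29%). The difference between the directions lay in the large changes only, since 49.0% of all genes were lower by any amount and 50.9% higher. A list of interferon-stimulated genes and a wider list of interferon-responsive genes, together called the interferon lists below, held 44 of the 81 lower genes and the NF-kB target list 7, while 30 lay outside both. Of the 10 higher genes 9 lay outside them. The 30 lower genes outside still include genes of interferon signalling and antigen presentation, namely IRF1, IRF7, IFNL1, IFNL2, TAP1 and TAP2. Of the lower genes 8 were not detected on the imetelstat array, and for 3 of these the bound against the lowest detected signal was below 2-fold. Where a called gene had a further detected probe, 33 of 33 such probes gave the same direction and 16 were 2-fold as well. At the limit, RNF213 (49.9% of its vehicle signal), IFITM2 (ratio -1.02), UPP1 (-1.03) and RPS23 (1.02) lay just inside and LGALS3BP (50.2% of its vehicle signal), LAMB3 (ratio -0.99), CPA4 (-0.98) and UNC45A (0.99) just outside.

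**Figure D1:**
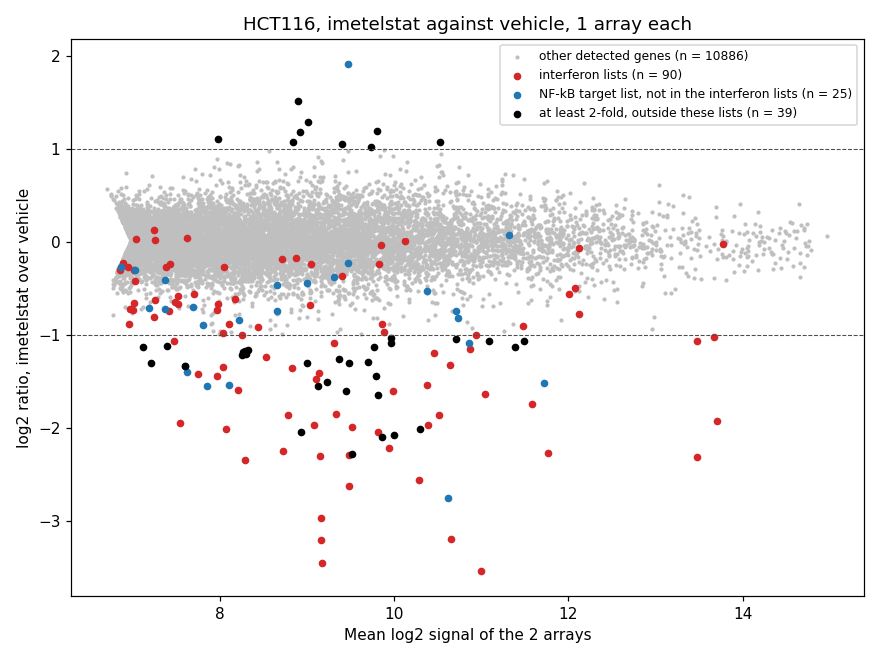
Log2 ratio of imetelstat over vehicle in HCT116 (vertical axis) against the mean log2 signal of the 2 arrays (horizontal axis), 1 point per gene for 11040 genes, with dashed lines at 2-fold. Red points are the 90 detected genes of the interferon lists, blue points the 25 NF-kB targets and black points the 39 genes at least 2-fold different outside these lists. Below the lower line most points are red, and above the upper line there are 10 genes.

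The called genes were also set against the arrays labelled COLO205. Among the 2 HCT116 and the 2 COLO205-labelled arrays the HCT116 vehicle array gave the highest signal for 79 of the 81 lower genes and the lowest for 8 of the 10 higher genes. These genes were chosen by the difference between the 2 HCT116 arrays, which favours such an order, so both counts are descriptions. On the COLO205-labelled vehicle array 78 of the 81 lower genes had a level nearer to the HCT116 imetelstat array than to the HCT116 vehicle array. The same choice of genes favours this count, which is a description too. Since 1 array stands for each condition, a difference due to imetelstat and a difference particular to the vehicle culture or array cannot be told apart.

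The interferon-stimulated genes form the largest block and are given here in brief. All 40 measured genes of that list were lower, beside 49.0% of all genes, and 30 were at least 2-fold lower, beside 0.734%. Their median ratio was -1.89, beside 0.01 over all genes. IFI27, a small membrane protein, gave 6955 on the vehicle array and 602 on the imetelstat array (-3.53). OASL, a relative of the oligoadenylate synthetases, gave 1911 and 175 (-3.45), and IFIT1, which binds foreign RNA ends, 4843 and 532 (-3.19), although the second probe of IFIT1 gave -0.37. IFI44 gave 1731 and 189 (-3.20), IFIT2 1594 and 205 (-2.96) and the transmembrane restriction factor IFITM1 3026 and 514 (-2.56). Beside IFIH1, given with the sensors below, the others of the list among the 15 lowest ratios of all genes were SAMD9 (-2.62), EPSTI1 (-2.35), IFI6 (-2.31), DDX60 (-2.29), HERC5, the ligase that attaches ISG15 (-2.27), and OAS1, an oligoadenylate synthetase (-2.24). In a wider list of interferon-responsive genes 45 of 50 were lower, the median was -0.67 and 14 reached 2-fold. Its lowest member was PARP9, a macrodomain protein of the PARP family, at 1450.3 and 367 (-1.98).

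The genes of nucleic acid sensing and interferon signalling divided by role, and some also belong to this block. The 13 measured sensors of foreign nucleic acid and their adaptors were all lower, beside 49.0% of all genes, with a median of -0.54. Among them the RNA sensor IFIH1 gave 1582 on the vehicle array and 324 on the imetelstat array (-2.29), the kinase EIF2AK2 2269 and 783 (-1.53) and RIGI 414 and 152 (-1.44), whereas the adaptor MAVS gave 185 and 174 (-0.09) and the kinase TBK1 996 and 931 (-0.10). The first 3 were at least 2-fold lower, beside 0.734% of all genes, and are also counted in the interferon lists. MAVS and TBK1 lay within the scatter of genes of like signal.

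The receptors and kinases of interferon signalling were close to equal. IFNAR1, a chain of the type I receptor, gave 244 and 257, JAK1 309 and 307, TYK2 1042 and 1241 and IFNLR1, the interferon lambda receptor, 318 and 344 on the vehicle and imetelstat arrays. Of the transcription factors IRF7, the main driver of interferon genes, gave 2526 on the vehicle array and 629.8 on the imetelstat array (24.9% of vehicle) and its second probe was lower too (-1.48). IRF1 gave 1303 and 533 (-1.29) and IRF9, the DNA-binding part of the interferon-activated complex, 2613 and 1381 (-0.92), while IRF3 gave 352 and 395 (0.16). Over the 19 measured members of the list 11 were lower and 8 higher (median -0.04).

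The interferon lambda genes were detected on the vehicle array only. IFNL2 gave 232 there and was undetected after imetelstat, so that it was at least 1.83-fold lower. IFNL1 gave 204 and was at least 1.61-fold lower, and IFNL3 gave 139, at least 1.09-fold lower. IFNL2 and IFNL3 are near-identical copies, so their probes may read both. None of the 3 was detected on a COLO205-labelled or OVCAR5 array.

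Antigen presentation followed the interferon block at a smaller size. Of 18 measured genes of MHC class I and peptide loading 15 were lower (median -0.66), beside 49.0% of all genes, and 3 by 2-fold, beside 0.734%. Of these PSMB9 is already counted within the interferon and NF-kB lists, while TAP1 and TAP2 lie outside them. PSMB9, a subunit of the immunoproteasome, gave 1221 on the vehicle array and 339 on the imetelstat array (-1.85), and its second probe gave -1.10. The peptide transporter genes TAP2 and TAP1 gave 1019.9 and 426 (-1.26) and 3939 and 1809 (-1.12), B2M, the light chain of every class I molecule, 10989 and 5737 (-0.94) and HLA-B 3414 and 1756 (-0.96). The chaperones CALR and CANX, which serve all secreted proteins, stood on the other side with 1086 and 1522 (0.49) and 344 and 458 (0.41). HLA genes are alike in sequence and their probes may read more than 1 of them. The constitutive proteasome subunits had a median of -0.17, with 19 of 25 lower and none at 1.5-fold.

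Of 25 measured NF-kB targets 23 were lower, 7 of them at least 2-fold beside 0.734% of all genes, with a median of -0.71. CXCL8, the chemokine interleukin 8, gave 4059 on the vehicle array and 605 on the imetelstat array (-2.75), and a second probe gave -2.21. The feedback inhibitors NFKBIA and TNFAIP3 gave 5681 and 1987 (-1.52) and 468 and 161 (-1.54). The chemokines CXCL1 and CCL20 were detected on the vehicle array only and were at least 2.52-fold and 2.43-fold lower. LCN2, a siderophore-binding protein and NF-kB target, ran the other way with 365 on the vehicle array and 1376 on the imetelstat array (1.91), the highest ratio of all genes measured.

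The promoter landmarks can be set beside these blocks. A RefSeq window of 250 bases before to 50 after a start was matched by symbol for 8920 of the 11040 measured genes, and a gene counted as holding a motif if any of its listed windows did, on either strand. The interferon-stimulated response element stood in 4.38% of all 27305 genes with a window and in 3.85% of the measured ones. Among genes with a window it stood in 23 of 33 interferon-stimulated genes (69.7%), 10 of 16 genes of MHC class I and peptide loading (62.5%), and none of 32 G2 and mitosis genes. It was in 32 of 59 genes at least 2-fold lower, and outside the interferon and NF-kB lists in 4 of 15, namely IFNL1, IFNL2, TAP1 and TAP2. The kappa B letters stood in 1.97% of all genes and in 11 of 22 NF-kB targets (50.0%), LCN2 among them. The NF-kB targets with these letters had a median ratio of -0.74 and those without -0.71. TTTGAA stood in 18.2% of all genes, 13.7% of measured genes and 22 of 32 G2 and mitosis genes (68.8%), against 1 of 33 S phase genes. Among the G2 and mitosis genes the median ratio was 0.37 with TTTGAA and 0.53 without. CCAAT stood in 39.7% of all genes, 43.7% of measured genes and 29 of 32 G2 and mitosis genes (90.6%), against 20 of 33 S phase genes (60.6%). Motif matches describe letters in a window. The letters of the 4 motifs differ, so that no match to 1 of them is by itself a match to another.

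Outside the interferon and NF-kB lists the lowest protein-coding gene was LAMP3, a lysosomal membrane protein that interferon is known to induce, with 1611 on the vehicle array and 333 on the imetelstat array (-2.27). Its second probe gave -1.36. PLAAT4, a phospholipase, was detected on the vehicle array only and was at least 1.94-fold lower, and IRAK2, a kinase of interleukin 1 signalling, gave 478 and 213 (-1.16). RASGRP3, an exchange factor for Ras, was detected on the vehicle array only at 306 and was at least 2.40-fold lower. DHRS2, a short-chain dehydrogenase, gave 469 and 209 (-1.17) with a second probe at -0.88, PLEKHA4, a lipid-binding adaptor, 464 and 205 (-1.18) and NFE2L3, a transcription factor of the CNC family, 1291 and 589.9 (-1.13). CD68, a lysosomal glycoprotein used as a macrophage marker, gave 2401 and 1163 (-1.05) and its further probes -0.89 and -0.72. The only other leukocyte marker detected, CD2, was found on the vehicle array only, at 146. UPP1, which splits uridine, gave 1429 and 698 (-1.03), but its second probe gave -0.10.

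**Figure D2:**
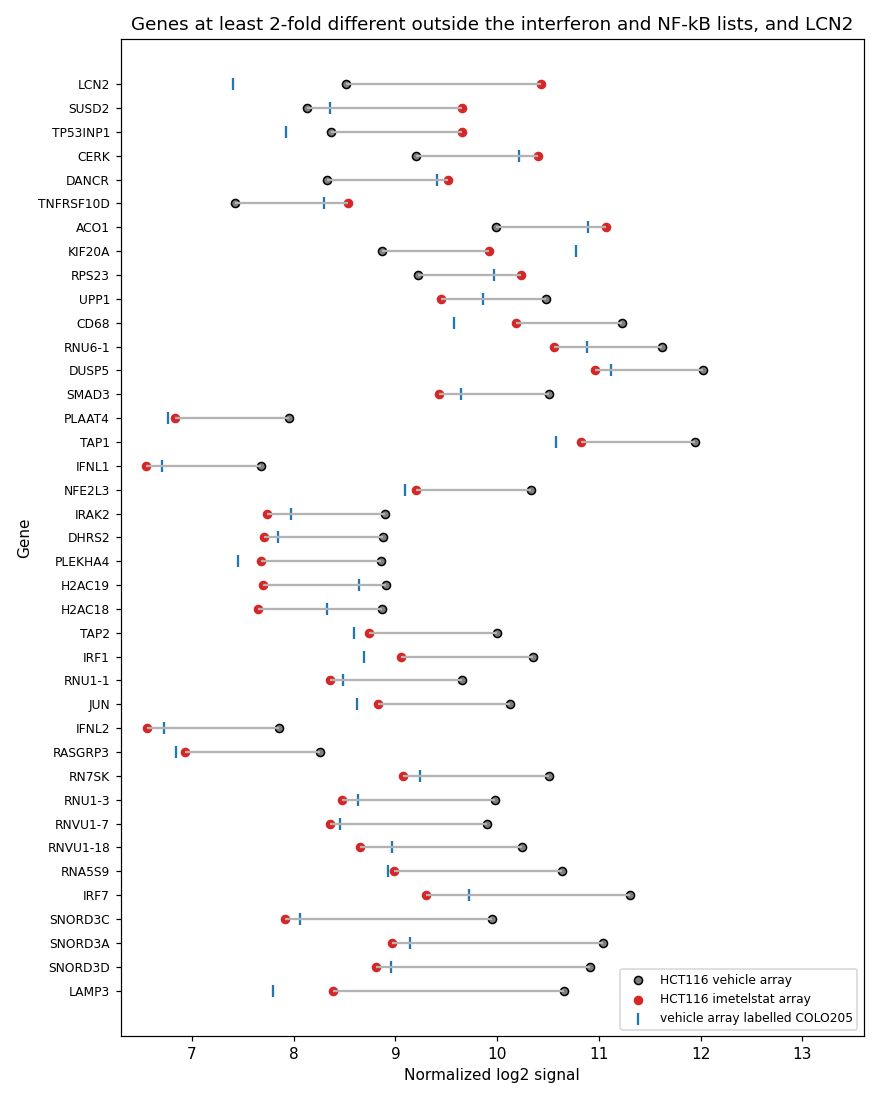
Normalized log2 signal (horizontal axis) of 38 of the 39 genes at least 2-fold different outside the interferon and NF-kB lists, and of LCN2, with the HCT116 vehicle array in grey, the HCT116 imetelstat array in red and the COLO205-labelled vehicle array as a blue tick. For most lower genes the blue tick lies near the red point, which the choice of these genes favours.

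Short non-coding RNAs took 10 of these 30 places, with the copies of U3 and of U1 counted as separate genes. The U3 small nucleolar RNA copies, which guide the first cuts of ribosomal RNA, were the lowest, with SNORD3D at 1922 on the vehicle array and 449 on the imetelstat array (-2.10), SNORD3A at 2103 and 499.7 (-2.07) and SNORD3C at 988 and 241 (-2.04). The U1 splicing RNA genes followed, with RNVU1-18 at 1213 and 402 (-1.59), RNVU1-7 at 958 and 327 (-1.55), RNU1-3 at 1006 and 356 (-1.50) and RNU1-1 at 803 and 328 (-1.29). Both sets are near-identical copies whose probes cannot be read as separate genes. RNA polymerase III products were among them too, namely the ribosomal RNA gene RNA5S9 at 1592 and 508 (-1.65), RN7SK, a brake on transcription elongation, at 1452 and 538 (-1.43) and the U6 gene RNU6-1 at 3143 and 1507 (-1.06). A second RN7SK probe gave -1.71. By annotated class 10 of 11 measured small nuclear RNA genes were lower, 6 by 2-fold or more (median -1.06), beside 0.734% of all genes. These 6 are the U1 copies, RN7SK and RNU6-1, so they stand for fewer separate RNAs and the count overstates the distance from that share. The 85 measured small nucleolar RNA genes were mostly near 0, since 58 were lower, 3 at least 2-fold and the median was -0.08. SNORA12 stood on the other side at 342 and 590.4 (0.79).

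The clustered histone genes formed a second block of this kind. Of 11 measured genes of the list 10 were lower, 6 at 1.5-fold and 2 at 2-fold, with a median of -0.62. Over all genes 49.0% were lower, 2.09% at 1.5-fold and 0.734% at 2-fold. The 7 measured clustered histone genes that the list did not hold, counted after their values were seen, lay closer to 0, with 5 lower, none at 1.5-fold and a median of -0.11. H2AC18 and H2AC19, duplicate H2A genes whose probes may read both, gave 466 and 201 (-1.22) and 479 and 208 (-1.20). H2AC20 gave 445 and 238 (-0.90), H2BC5 673 and 386 (-0.80) and the linker histone H1-2 921 and 585 (-0.65). H4C3, the brightest of them, was higher with 22199.7 on the vehicle array and 29476 on the imetelstat array (0.41). These histone messages and most short RNAs carry no poly(A) tail, and the labelling kit primes from such tails, so their signal counts only the part of each transcript that was primed. The part of labelling in the difference was not tested.

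On the COLO205-labelled arrays the same groups ran the other way. All 10 small nuclear RNA genes measured there, the U1 copies among them, were higher after imetelstat, with a median of 0.36. The histone list had a median of 0.67 with 9 of 11 higher. H2AC18 had a log2 signal of 8.86 and 7.65 on the HCT116 vehicle and imetelstat arrays, and 8.32 and 10.16 on the COLO205-labelled ones. SNORD3A stood at 11.04 and 8.96 in HCT116, 9.15 and 9.67 under the COLO205 label and 8.66 and 8.60 in OVCAR5. These differences between pairs of arrays were not tested, as each label had 1 pair.

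**Figure D3:**
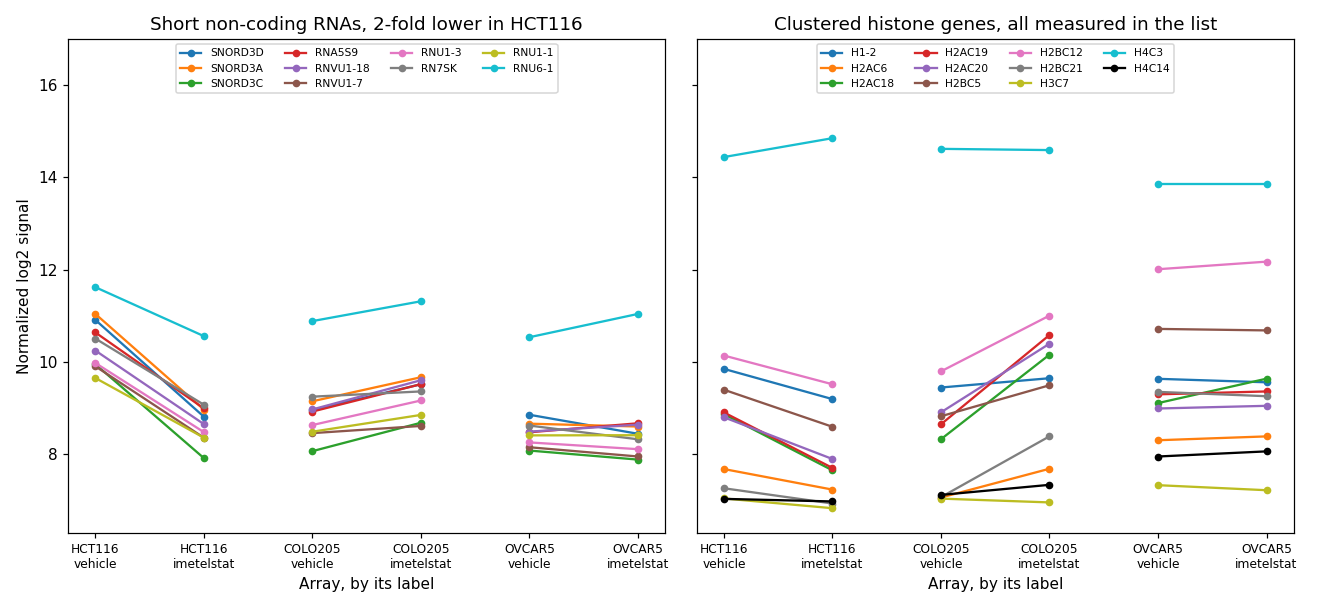
Normalized log2 signal (vertical axis) on each of the 6 arrays, with lines joining the vehicle and imetelstat array of a line, for the 10 short non-coding RNA genes chosen because they were 2-fold lower in HCT116 (left) and the 11 measured genes of the histone list (right). In HCT116 all lines fall except that of H4C3, and between the arrays labelled COLO205 all rise except those of H4C3 and H3C7.

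Of the cytosolic ribosomal protein genes 26 of 38 were higher, beside 50.9% of all genes, with a median of 0.09. RPS23 was the 1 member at 2-fold with 595 on the vehicle array and 1208 on the imetelstat array (1.02). Its probe was dim for the list, with a log2 signal of 9.22 on the vehicle array beside a list median of 14.16. What part of the RPS23 message this probe reads was not tested. RPL22 gave 2272 and 3636 (0.68).

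All 39 measured G2 and mitosis genes were higher after imetelstat, beside 50.9% of all genes, with ratios from 0.13 to 1.05 and a median of 0.42. At 1.5-fold 12 of them were higher, beside 1.29% of all genes, and at 2-fold 1. KIF20A, a kinesin of the dividing midzone, gave 468 on the vehicle array and 970.1 on the imetelstat array (1.05). NEK2, a centrosome kinase, gave 424 and 773 (0.87), PBK, a mitotic kinase, 1079.5 and 1904 (0.82), CENPA, the centromeric histone H3, 311 and 536 (0.79) and HMMR, a spindle protein, 739 and 1232 (0.74). The core regulators moved less, with cyclin B1, CCNB1, at 219.9 and 283 (0.36), CDK1 at 1886 and 2360.1 (0.32), PLK1 at 146 and 173 (0.25) and MKI67 at 233 and 261 (0.16). Each ratio is 1 unreplicated value, and what the members shared was the direction.

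The HCT116 vehicle array gave the lowest signal of the 2 HCT116 and 2 COLO205-labelled arrays for 39 of 39 of these genes, beside 23.5% of all genes measured. For KIF20A the log2 signals were 8.87 and 9.92 in HCT116 and 10.78 and 10.49 under the COLO205 label, and for AURKA, a spindle kinase, 9.55, 10.11, 11.05 and 10.98. Between the COLO205-labelled arrays 36 of the 39 were lower after imetelstat (median -0.16) and between the OVCAR5 arrays 27 were higher (median 0.15). The S phase genes did not follow, with 21 of 36 higher, a median of 0.04, none at 1.5-fold and the largest ratio at POLA1, a DNA polymerase subunit, with 777 and 1052 (0.44).

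Targets of p53 were higher more often than lower. Of 23 measured targets 18 were higher, 4 at 1.5-fold and 1 at 2-fold, with a median of 0.22, below the scatter of all genes (0.23). Over all genes 50.9% were higher, 1.29% at 1.5-fold and 0.0906% at 2-fold. TP53INP1, which takes part in p53-driven death and autophagy, gave 329 on the vehicle array and 807 on the imetelstat array (1.29) and 0.82 with its second probe. SESN1, a stress-induced brake on growth signalling, gave 255 and 464 (0.86), and the excision repair genes DDB2 and XPC gave 218 and 342 (0.65) and 943 and 1451 (0.62). CDKN1A, the cell cycle inhibitor p21, was bright on both arrays with 10407 and 11254 and near equal (0.11). GDF15, bright too, gave 7057 and 8209 (0.22), the size of the list median. ZMAT3 gave 3174 and 2995 (-0.08) by its brightest probe, but 1.22 and 1.38 by its further probes. PPM1D, a phosphatase and p53 target that was named after its values were seen, gave 578 and 980.2 (0.76). For 17 of the 23 targets the HCT116 imetelstat array was the highest of the 4 arrays labelled as colon lines, beside 26.9% of all genes measured. The medians were 0.00 under the COLO205 label and 0.06 in OVCAR5.

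Members of the BCL2 family and apoptosis effectors were balanced, with 12 of 22 higher and a median of 0.05. BAX, a pore-forming death effector, gave 552 and 779 (0.50) and APAF1, the core of the apoptosome, 364 and 517 (0.50), whereas HRK, a BH3-only protein, gave 526 and 312 (-0.76). TNFRSF10D, a decoy receptor for the death ligand TRAIL, gave 172 on the vehicle array and 370.4 on the imetelstat array (1.11).

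The measured genes of the telomerase list, which do not include TERT or TERC, showed small ratios. The probes of TERT, the reverse transcriptase, and TERC, the RNA that imetelstat binds, were not detected on either HCT116 array. Of the 11 measured genes of the holoenzyme list 8 were lower and 3 higher, none by 1.5-fold (median -0.02). RUVBL1, an ATPase of telomerase assembly, gave 1487 and 1030.3 (-0.53), GAR1, a protein of the H/ACA particle, 2073 and 1438 (-0.53, but -0.81 to 0.03 over its further probes), DKC1, the pseudouridine synthase dyskerin, 2549 and 2098 (-0.28) and NOP10 7076 and 5780.0 (-0.29), while RUVBL2 gave 939.6 and 1244 (0.40). NHP2, SHQ1, PARN, WRAP53 and NAF1 lay between -0.02 and 0.04, and LARP7 gave -0.22. Among 14 measured genes of shelterin and telomere end maintenance 8 were higher and 6 lower (median 0.04). STN1, part of the complex that fills in the C-rich strand, was the only one at 1.5-fold with 1147 on the vehicle array and 1937 on the imetelstat array (0.76, and 0.27 by its second probe), and POT1, which covers the single-stranded overhang, gave 283 and 227 (-0.31). In the DNA damage and repair list 16 of 23 were higher, beside 50.9% of all genes, with a median of 0.05. The ratios ran from NBN at 724 and 433 (-0.74) to PRKDC at 1448 and 2191 (0.60). Their further probes lay closer to 0, at -0.26 for NBN and from 0.17 to 0.37 for PRKDC.

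Immediate early genes and some of the stress lists lay mostly below 0, where 49.0% of all genes lay. Of 22 measured AP-1 and immediate early genes 18 were lower, with a median of -0.36. JUN gave 1116 on the vehicle array and 454 on the imetelstat array (-1.30), its partner FOSL1 1106 and 559.5 (-0.98) and ATF3, a stress-induced factor, 911 and 466 (-0.97), while FOS gave 388 and 413 (0.09). Among EGF family and ERK feedback genes 14 of 20 were lower (median -0.10), and DUSP5, a nuclear ERK phosphatase, gave 4166 and 1992 (-1.06). SMAD3, a TGF-beta mediator, gave 1456 and 688 (-1.08). In the unfolded protein and ATF4 list 15 of 21 were lower (median -0.26), and the list was divided. PPP1R15A, which restarts translation, gave 1181 and 673 (-0.81) and DDIT3, a death-promoting factor, 603 and 396 (-0.61), whereas the lumenal chaperones HSP90B1 and HSPA5 gave 6788 and 10380.1 (0.61) and 309 and 439 (0.51). Metallothioneins and zinc transport genes were lower in 7 of 8, with a median of -0.35, and MT1E gave 10664 and 7299 (-0.55). Heat shock chaperones, with 9 of 14 lower (median -0.12), and NRF2 targets, with 9 of 16 (median -0.11), stood nearer to the share of all genes. Both medians were smaller than the scatter of all genes (0.23), and with scaling to a common median 8 of the 14 heat shock genes were lower. Among the NRF2 targets TXNRD1, thioredoxin reductase, gave 2561 and 1681 (-0.61) and NQO1, a quinone reductase, 4237 and 5871 (0.47).

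Metabolic lists had medians close to 0. The medians were 0.00 for 28 genes of hypoxia and glycolysis, 0.04 for 32 nuclear genes of oxidative phosphorylation, 0.15 for 17 genes of sterol synthesis and uptake and 0.15 for 12 genes of fatty acid synthesis. TM7SF2, a late sterol reductase, gave 529 and 802 (0.60) and was the only sterol gene at 1.5-fold. Among 8 measured genes of iron handling 2 were at least 2-fold higher, beside 0.0906% of all genes. They were LCN2, already given with the NF-kB targets, and ACO1, an aconitase that also serves as an iron sensor. ACO1 gave 1018 on the vehicle array and 2146 on the imetelstat array (1.08). The transferrin receptor TFRC gave 982 and 1141 (0.22). Solute carriers were lower in 10 of 13, beside 49.0% of all genes, with a median of -0.18. The glutamate transporter SLC1A3 led them at 389 and 199 (-0.97). Lysosome and autophagy genes were higher in 16 of 21, beside 50.9% of all genes, with a median of 0.15. On the other side the autophagy conjugation protein ATG12 gave 2457 and 1356 (-0.86, and -0.38 by its second probe) and the autophagy receptor SQSTM1 11394 and 8016 (-0.51).

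**Figure D4:**
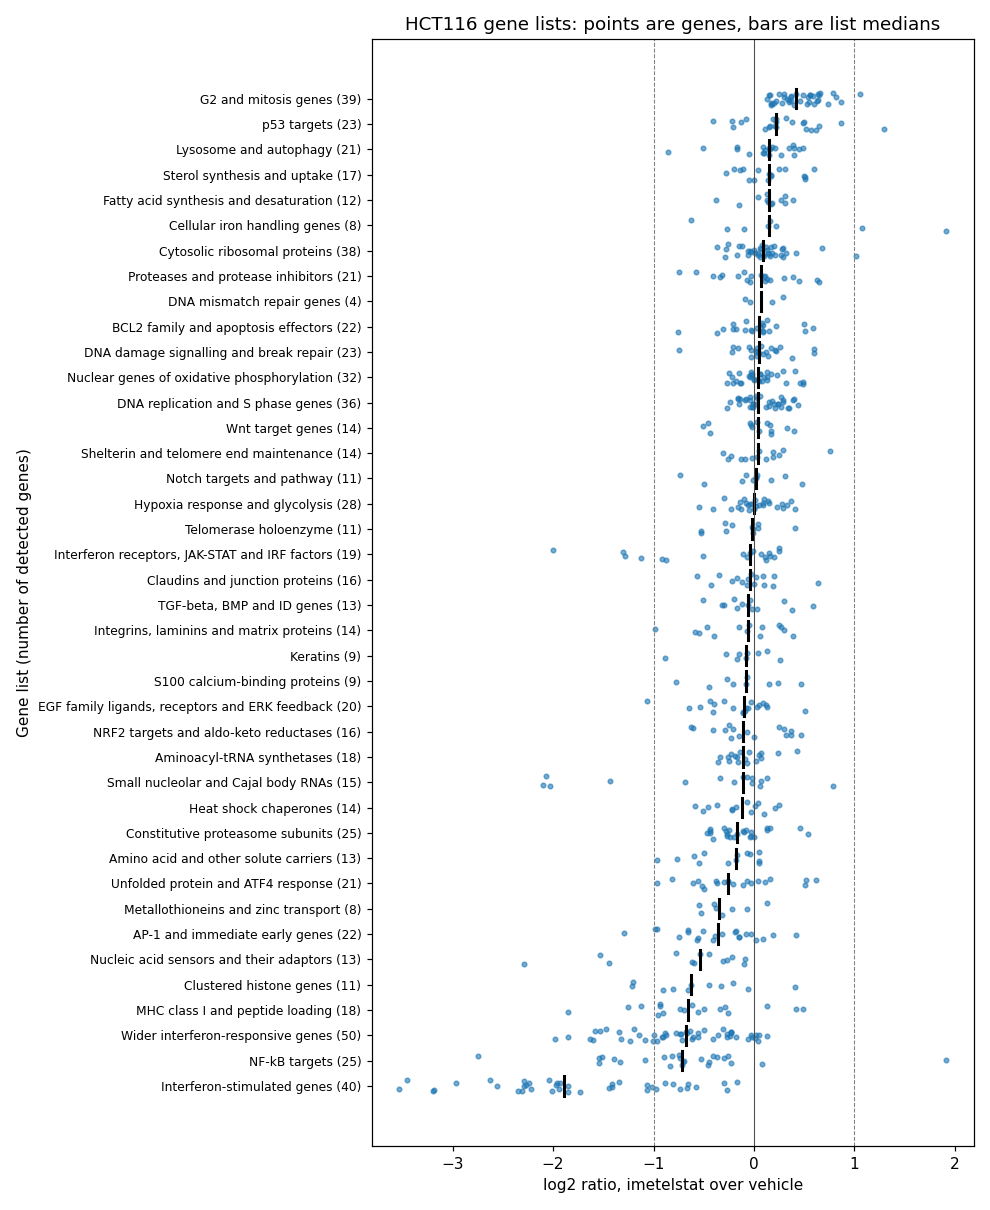
Log2 ratio of imetelstat over vehicle in HCT116 (horizontal axis) for the measured members of each gene list with at least 3 of them (points, with the number of genes in brackets) and the list median (black bars), in order of the median, with dashed lines at 2-fold. The interferon-stimulated genes stand lowest with a median of -1.89 and the G2 and mitosis genes highest of the lists shown with 0.42, and most lists of metabolism and cell structure straddle 0.

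Epithelial structure and surface genes varied gene by gene. Keratins had a median of -0.08, with KRT80 at 324 and 176 (-0.88, but -0.13 by its second probe) and KRT8 at 5954 and 5383 (-0.15). Claudins and junction proteins had a median of -0.04, with the claudin CLDN3 at 208 and 324 (0.64) and cingulin, CGN, at 811 and 547 (-0.57). Among integrins, laminins and matrix proteins 8 of 14 were lower, with LAMB3, a laminin 332 chain, at 588 and 297 (-0.99) and the integrin ITGA5 at 584 and 389.6 (-0.58). The urokinase gene PLAU gave 2162 and 1289.9 (-0.74) and the kallikrein KLK6 1357 and 2131 (0.65, but 0.08 by its second probe). Wnt targets had a median of 0.04, with MYC at 4539 and 3194 (-0.51), and TGF-beta, BMP and ID genes -0.05, with ID2 at 789.5 and 1189 (0.59).

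The remaining higher genes shared no list. SUSD2, a membrane protein with a sushi domain, gave 280.4 on the vehicle array and 804 on the imetelstat array (1.52). DANCR, a long non-coding RNA that hosts a small nucleolar RNA, gave 322 and 730.5 (1.18). CERK, which makes ceramide 1-phosphate, gave 589.8 and 1351 (1.20), but its second probe gave 0.26. Just below 2-fold, among the 15 highest ratios, stood CYSRT1 (0.98), the marker ACTA2 given above, RCN2, a calcium-binding protein of the endoplasmic reticulum (0.95), and ASS1, an enzyme of arginine synthesis (0.93). On the COLO205-labelled vehicle array 7 of the 10 higher genes stood nearer to the HCT116 imetelstat array, a count that the choice of these genes favours. SUSD2 stood at log2 signals of 8.13 and 9.65 in HCT116 and 8.36 on that array, and LCN2 at 8.51, 10.43 and 7.40, below both HCT116 arrays.

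Side by side with the other pairs of arrays, the 81 lower genes of HCT116 had a median of -0.18 under the COLO205 label (45 of 69 measured were lower). In OVCAR5 it was 0.04 (36 of 78 lower). CXCL8 had a ratio of -2.75 in HCT116, -0.29 under the COLO205 label and -0.57 in OVCAR5. The interferon-stimulated genes had medians of -1.89, -0.36 and 0.05 and the NF-kB targets -0.71, 0.01 and -0.22 in the same order. None of these differences between pairs of arrays was tested.

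**Figure D5:**
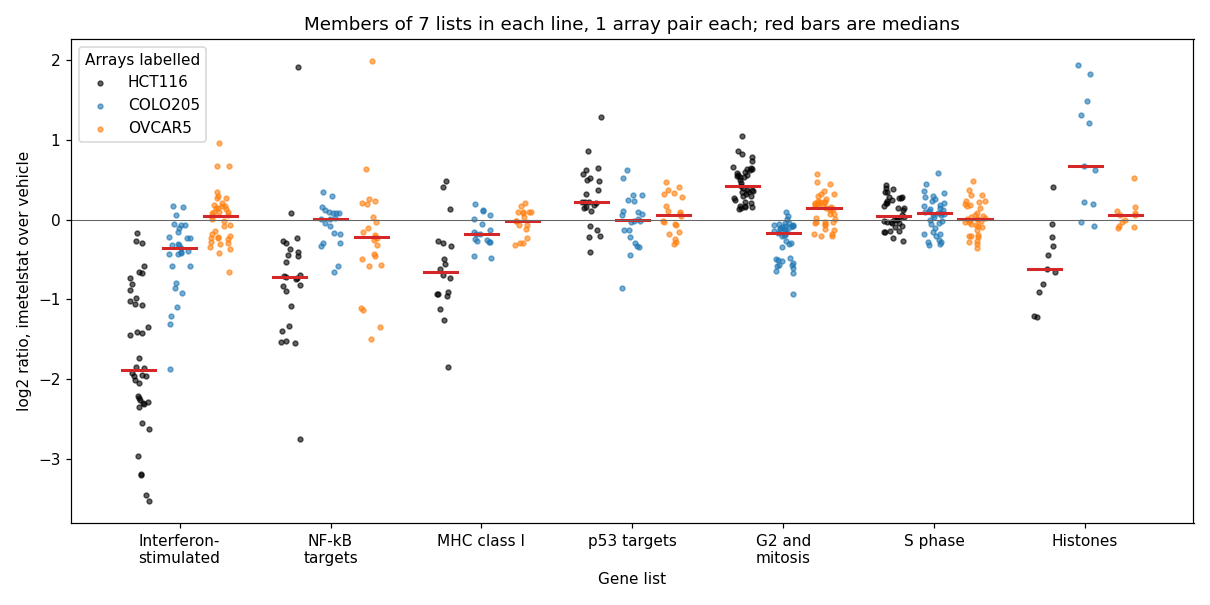
Log2 ratio of imetelstat over vehicle (vertical axis) for the measured members of 7 gene lists (horizontal axis), in HCT116 (black), under the COLO205 label (blue) and in OVCAR5 (orange), with red bars at the medians. The G2 and mitosis genes of HCT116 all lie above 0 and its interferon-stimulated genes all below 0.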

How the data were processed

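RNA of each culture was labelled with the Ambion MessageAmp kit and read on 1 array. For each probe the authors deposited a GenomeStudio signal intensity, the linear mean over its beads, without background subtraction or normalization between arrays. The deposited detection p-values set each probe against negative control beads of its array. The processed intensities deposited by the authors are quantile-normalized and linear, made with lumi per the methods, and served as an alternative. No version or genome build is given in the sources used here.

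Signal intensities were log2-transformed and then quantile-normalized across the 6 arrays in limma 3.58.1 in R 4.3.3. Of 47231 probes 30113 had 1 gene symbol in the platform annotation, 8 had several and 17110 none, and 30074 symbols were brought up to date through the gene identifier. On the HCT116 arrays 18418 probes had a detection p-value under 0.01, 14523 of them with 1 symbol, and the brightest stood for each gene. Where 1 array did not detect the probe, the bound is the bright signal over the lowest detected signal of the dim array, or over the probe's own if higher. The number of arrays limits the precision, and 1 array a side allows no test. Genes were called at 2-fold. Medians of 41 gene lists and 4 marker lists were described beside all genes. Genes were named from the 15 lowest and 15 highest genes, every gene at 2-fold outside the interferon and NF-kB lists, the 4 largest ratios of each list, CXCL8, CDKN1A and the detected telomerase genes. Of the 4 of each list only part is printed, and 1 higher gene is not reported here. Further list members and probes were named after their values were seen. The members and lists were chosen with earlier results of these data known. The normalization and the probe choice were tested on simulated data.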

Additional observations from a re-analysis of the deposited data

Results flagged for a closer look

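The histone genes H2AC18 and H2AC19 were at least 2-fold lower in HCT116 and at least 2-fold higher on the arrays labelled COLO205. Their log2 ratios in the 2 pairs of arrays differed by -3.05 and -3.14. The clustered histone list as a whole had medians on opposite sides, which differed by -1.29. UPP1 was 2-fold lower in HCT116 and 2-fold higher in OVCAR5, a difference of -2.69, although its second HCT116 probe gave -0.10. None of these differences was tested, since each pair had 1 array a side. Whether the arrays labelled COLO205 hold COLO205 cells was not tested either. Among detected probes without a single gene symbol, which no comparison used, 19 were at least 2-fold lower in HCT116 and 0 higher.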

How the results depend on the processing

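The normexp background correction widened the counts at 2-fold most, to 168 genes lower and 60 higher, and outside the interferon and NF-kB lists to 97 and 59. At 1.5-fold the counts were 231 lower and 142 higher, and outside the lists 151 and 141. At 3-fold they were 35 and 1, and outside the lists 7 and 0. The other 44 counts, under scaling to a common median, no scaling, quantile normalization over 2 or 4 arrays, the authors' processed intensities, an added offset of 32, other probe rules and other detection rules, stayed within 1.5 times. Quantile normalization over the 4 arrays labelled as colon lines and the count of single probes (102 lower, 12 higher) were added after seeing the data. Under normexp the median ratio of the interferon-stimulated genes was -2.14, of the wider interferon list -0.94 and of the nucleic acid sensors -0.79, and with the mean of a gene's probes the first was -1.52. The other 406 list medians moved by less than the scatter of all genes, and none of the list medians of 0.1 or more changed sign. Single genes were followed only where named by the rule above, and no such gene at 2-fold changed sign. Of the values of these named genes under other settings, 55 moved by at least the scatter of genes of like signal and 1601 by less. Of the 2-fold genes outside the lists CERK (0.73), CD68 (-0.88), IFNL1 (-0.82) and UPP1 (-0.57) fell short with the mean of their probes, and PLAAT4 (-0.93), IFNL1 (-0.91), RPS23 (0.98) and TNFRSF10D (0.98) with the offset. The cause was not tested. No paired analysis was possible because HCT116 had 1 array a side and the labels give no replicate numbers, and a fit over the 3 lines with the line as a block, which asks about all lines together, was not run.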
